A study of Caenorhabditis elegans with 2 samples.

Results

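The genes described here are the fbxa genes of the nematode Caenorhabditis elegans, chosen as every protein-coding gene whose name starts with fbxa- in the Ensembl annotation of the WBcel235 assembly (called ce11 in genome browsers). There are 170 such genes among 19973 protein-coding genes of the nuclear chromosomes, and they carry 169 distinct names because fbxa-41 is annotated at 2 loci on chromosome X. A gene is called bound below when the summit of a reproducible NHR-71 peak lay in its promoter window, which began 1000 bp upstream of the gene start and ended 200 bp downstream. By this rule 13 fbxa genes were bound and 157 were not, and the choice of members used no measured value.

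F-box proteins are the substrate-recognising subunits of SCF ubiquitin ligases, complexes in which a cullin scaffold carries a RING protein and, through a Skp1 adaptor, an F-box protein that brings in the protein to be ubiquitinated. The families of F-box genes are greatly expanded in Caenorhabditis, often as tandem arrays of related genes. Most FBXA proteins pair the F-box with a domain that FOG-2, a member of the same kind known from germline sex determination, also carries, and the substrates of most are unknown.

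NHR-71 is a nuclear hormone receptor, a kind of zinc-finger transcription factor that binds DNA. Its places on the genome were mapped by chromatin immunoprecipitation with sequencing (ChIP-seq) in whole hermaphrodite L1 larvae of strain OP480, genotype unc-119(tm4063) III; wgIs480, a transgenic line that stably makes NHR-71 with a GFP-FLAG tag at its C-terminus. The larvae were starved after bleaching, which holds them at hatching, and were collected 6 hours after synchronization; chromatin was sonicated and precipitated with an antibody against GFP. There was 1 group with 2 biological replicates, all of the same genotype and stage, so the values stand for 1 transgenic line and an average over all tissues of the larva.

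The authors deposited a list of 30000 ranked positions for each replicate, a like list for the pooled replicates, and 8540 peaks that passed their test of reproducibility, the irreproducible discovery rate (IDR). The 8540 IDR peaks are those the pooled list ranks highest by signal, with signals between 84.1 and 6143 in the authors' units. Signals rank peaks within a list, and read depth is unknown. For each replicate, its top positions below are its 8540 positions of highest signal. Nothing in the design compares treated with untreated worms, so the shares of fbxa genes are set beside the shares of all protein-coding genes and no test is given. The value of each replicate is given beside that of the IDR set to show the spread.

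Sequences at or near 8 summits in fbxa windows are shown first because they carry the resemblances described further on. All are the plus strand of WBcel235 from RefSeq. The first 3 lie near summits upstream of fbxa-24, fbxa-64 and fbxa-65, and the capitals mark the run of 19 bases that all of them hold.
fbxa-24, chrII:3815596-3815655: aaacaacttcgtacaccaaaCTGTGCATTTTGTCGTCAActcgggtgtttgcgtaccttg
fbxa-64, chrV:3278405-3278464: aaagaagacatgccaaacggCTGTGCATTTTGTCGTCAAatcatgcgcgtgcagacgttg
fbxa-65, chrV:3346740-3346799: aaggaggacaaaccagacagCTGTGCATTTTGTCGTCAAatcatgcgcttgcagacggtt

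The next 3 are the 100 bp around the summits of fbxa-90, of fbxa-63 and of the window shared by fbxa-76 and fbxa-77. They are shown because each holds the word CTGCGTCT, read here on the other strand as AGACGCAG, in capitals.
fbxa-90, chrV:16965806-16965905: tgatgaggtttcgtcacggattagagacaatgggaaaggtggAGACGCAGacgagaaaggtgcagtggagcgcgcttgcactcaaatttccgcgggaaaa
fbxa-63, chrIII:1243330-1243429: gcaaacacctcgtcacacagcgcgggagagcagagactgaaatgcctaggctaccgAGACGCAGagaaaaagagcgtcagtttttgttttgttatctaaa
fbxa-76 and fbxa-77, chrIII:1249330-1249429: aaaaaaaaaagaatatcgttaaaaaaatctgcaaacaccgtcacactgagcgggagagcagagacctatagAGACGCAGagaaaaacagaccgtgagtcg

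The last pair is the 100 bp around the summits of fbxa-83 and of the stronger peak of fbxa-24, shown because near copies of both stretches elsewhere in the genome also held IDR summits. Nothing is in capitals.
fbxa-83, chrIV:14327115-14327214: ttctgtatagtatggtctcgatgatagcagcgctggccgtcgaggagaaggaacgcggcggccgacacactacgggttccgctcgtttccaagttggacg
fbxa-24, chrII:3816391-3816490: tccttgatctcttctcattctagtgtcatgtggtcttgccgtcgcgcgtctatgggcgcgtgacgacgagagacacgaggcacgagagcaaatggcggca

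NHR-71 peaks were scarce at fbxa promoters. An IDR summit lay in the window of 13 of 170 fbxa genes, a share of 7.65% (95% exact Clopper-Pearson interval 4.13 to 12.7%, which covers the counting of genes only), against 20.8% of all protein-coding genes (4152 genes). The bound genes were fbxa-24, fbxa-37, fbxa-63, fbxa-64, fbxa-65, fbxa-76, fbxa-77, fbxa-83, fbxa-84, fbxa-90, fbxa-128, fbxa-137 and fbxa-141. Each replicate taken alone gave a count near that of the IDR set, since a top position lay in 14 fbxa windows in replicate 1 (8.24%, against 21.2% of all genes) and in 14 in replicate 2 (8.24%, against 21.1%). Of the 13 bound genes, 12 were also counted in replicate 1 and 11 in replicate 2. No position of any list, background positions included, lay in the windows of 144 fbxa genes. Windows at the start of every annotated transcript also gave 13 fbxa genes (22.6% of all genes), and so did overlap of the peak interval with the window (22.3%). With all 30000 listed positions counted, 24 fbxa windows held a position in replicate 1 (14.1%, against 37.9% of all genes) and 18 in replicate 2 (10.6%, against 37.9%). Counting genes by share takes no account of the relatedness of fbxa genes, and 17 of the 170 windows overlapped another fbxa window.

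The fbxa windows held 13 IDR summits in 197 kb of merged sequence, or 6.60 per 100 kb, against 3550 summits in 21518 kb of all promoter windows, or 16.5 per 100 kb. Of the bound genes, fbxa-24 had 2 peaks, and fbxa-76 and fbxa-77 shared 1. The summits lay between 959 bp upstream and 53 bp downstream of the gene start, with all but that of fbxa-128 upstream of it. Of the 13 peaks, 10 lay in the window of a single fbxa gene and of no other protein-coding gene.

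**Figure D1:**
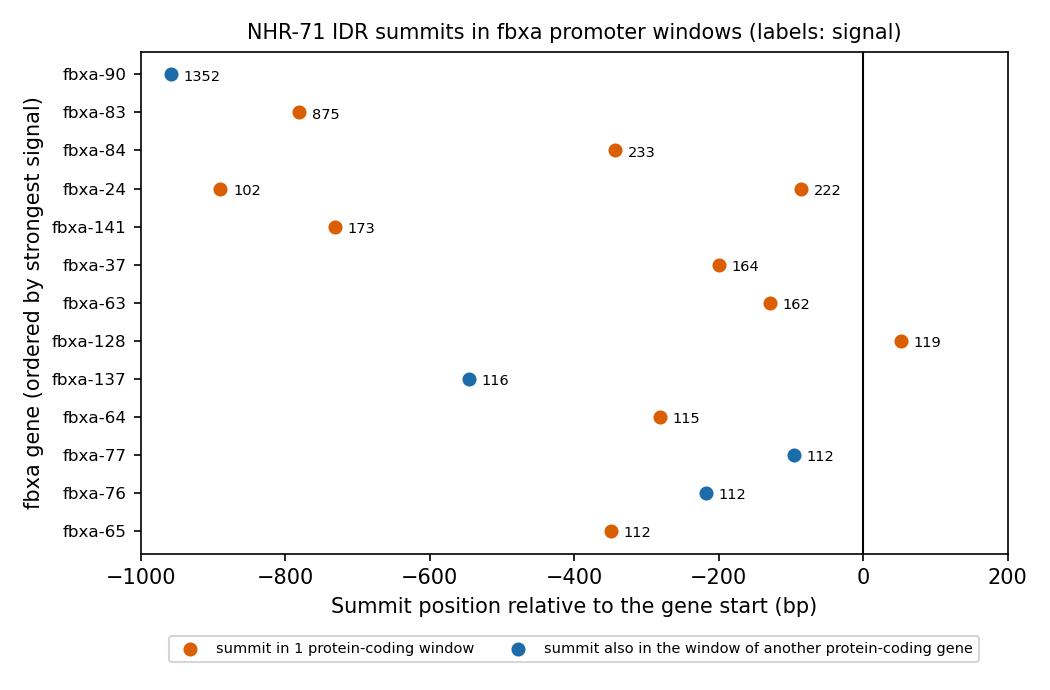
Position of each IDR summit relative to the start of its fbxa gene (x axis, bp; 0 is the gene start and the axis covers the whole window), 1 row per bound gene, ordered by strongest signal and labelled with the IDR signal. The strongest peaks, of fbxa-90 and fbxa-83, lie 959 and 781 bp upstream, and blue points mark summits that another protein-coding window also holds.

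The strongest peak in an fbxa window was that of fbxa-90 (WBGene00013623, chrV:16966814-16968586, plus strand), at chrV:16965686-16966015. Its IDR signal was 1352, at rank 282 of 8540, with 757 in replicate 1 (rank 269) and 599 in replicate 2 (rank 314). The summit lay 959 bp upstream of fbxa-90 and 180 bp upstream of efl-1, which encodes an E2F-family transcription factor and lies on the other side of the peak. It is inside the fbxa-90 window by 41 bp only, in intergenic sequence, and efl-1 is the nearest gene start.

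The next was the peak of fbxa-83 (WBGene00013453, chrIV:14323237-14326383, minus strand), at chrIV:14326950-14327358. Its IDR signal was 875 (rank 629), 482 in replicate 1 (rank 608) and 386 in replicate 2 (rank 701). No other protein-coding window held its summit, 781 bp upstream of fbxa-83, and the start of Y67A10A.14, a small nucleolar RNA gene, lay 43 bp from it.

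All other peaks in fbxa windows had IDR signals of 233 or less. The peak of fbxa-84 (WBGene00011670, chrV:15182440-15184132, plus strand) had an IDR signal of 233, 108 in replicate 1 and 121 in replicate 2, with a summit 343 bp upstream. The stronger peak of fbxa-24 (WBGene00018803, chrII:3816526-3818238, plus strand) had an IDR signal of 222, 103 in replicate 1 and 122 in replicate 2, with a summit 86 bp upstream. These 4 genes were the only bound fbxa genes among the 4270 IDR peaks of highest signal, 2.35% of the family against 13.4% of all protein-coding genes.

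The peak of fbxa-141 (WBGene00008355, chrX:14511248-14512917, minus strand), 732 bp upstream, had an IDR signal of 173, 95.6 in replicate 1 and 78.7 in replicate 2. The peak of fbxa-128 (WBGene00012923, chrIII:11136799-11139113, minus strand) had an IDR signal of 119, 59.0 in replicate 1 and 63.4 in replicate 2. It was the only one with its IDR summit inside the gene, 53 bp downstream of the start, in an exon outside the coding sequence. The replicate 1 summit was at the same place, and the replicate 2 summit was at position -19, upstream of the start. The second peak of fbxa-24, 890 bp upstream, had the lowest IDR signal of the set, 102, 49.8 in replicate 1 and 52.0 in replicate 2. Its nearest gene start was that of a pseudogene, WBGene00018807, at 178 bp.

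The peak of fbxa-137 (WBGene00020853, chrV:2278816-2281401, plus strand) was shared with nhr-59, which encodes another nuclear hormone receptor. Its IDR signal was 116, 66.3 in replicate 1 and 48.4 in replicate 2. The summit lay 546 bp upstream of fbxa-137 and 5 bp upstream of nhr-59, the divergent neighbour. Counting each summit only for the nearest protein-coding start removed fbxa-90, fbxa-137 and fbxa-76, leaving 10 fbxa genes (5.88%, against 16.5% of all genes).

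The genes fbxa-64 (WBGene00020883, chrV:3276956-3278151, minus strand) and fbxa-65 (WBGene00015885, chrV:3345312-3346484, minus strand) were both bound upstream of their starts. The fbxa-64 peak, 281 bp upstream, had an IDR signal of 115, 65.6 in replicate 1 and 41.1 in replicate 2. The fbxa-65 peak, 349 bp upstream, had an IDR signal of 112, 53.4 in replicate 1 and 53.9 in replicate 2. The replicate 2 position of fbxa-64, at rank 9125, fell below the top 8540 of its list.

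On chromosome III, fbxa-76 (WBGene00044675, chrIII:1247618-1249161, minus strand) and fbxa-77 (WBGene00022484, chrIII:1249475-1251854, plus strand) are divergent neighbours 313 bp apart with 1 peak between them. The summit lay 218 bp upstream of fbxa-76 and 96 bp upstream of fbxa-77, with an IDR signal of 112, 62.1 in replicate 1 and 48.6 in replicate 2. It was the only IDR summit in the windows of more than 1 fbxa gene.

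The peaks of fbxa-37 and fbxa-63 were each missing from a replicate list. That of fbxa-37 (WBGene00013845, chrIII:1284996-1287140, plus strand), 199 bp upstream, had an IDR signal of 164 and 72.2 in replicate 2, and no replicate 1 position covered it. That of fbxa-63 (WBGene00022485, chrIII:1243508-1245358, plus strand), 129 bp upstream, had an IDR signal of 162 and 80.0 in replicate 1, and no replicate 2 position covered it. Both replicate lists covered the summits of 11 of 13 peaks in fbxa windows (84.6%), against 98.7% of all IDR peaks (8426 of 8540). These are 2 of the 114 IDR peaks that exactly 1 replicate list missed, and their place in the bound set rests on the pooled list and 1 replicate.

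**Figure D2:**
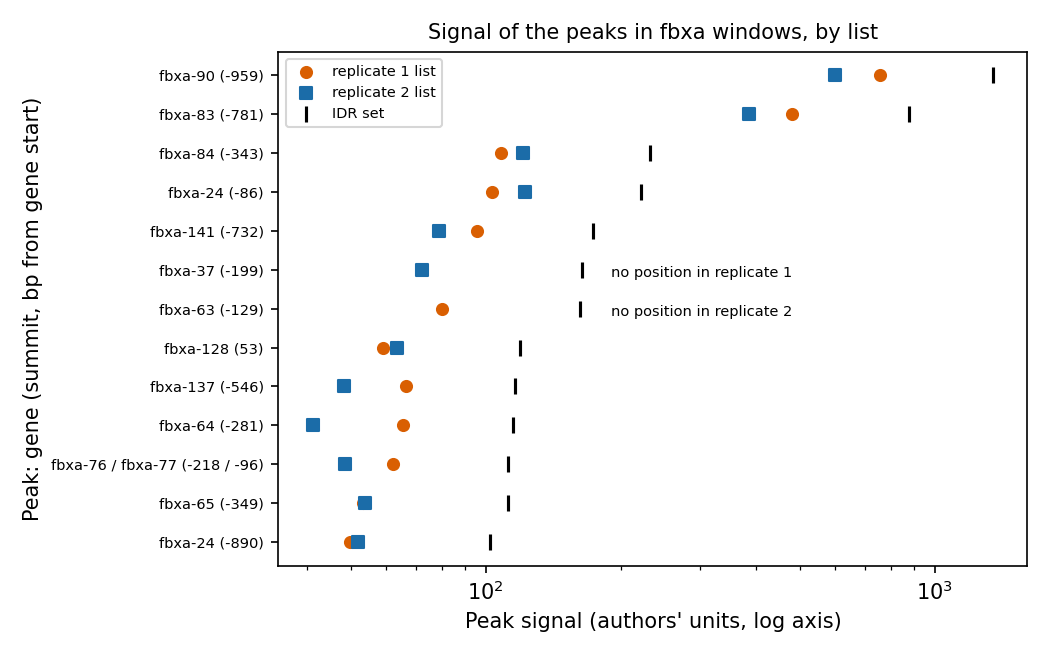
Signal (x axis, authors' units, log axis) of the 13 peaks in fbxa windows, 1 row each, in the replicate 1 list (orange circles), the replicate 2 list (blue squares) and the IDR set (black bars), which has its own scale. The fbxa-90 and fbxa-83 peaks stand above the others in both replicates, and the rows of fbxa-37 and fbxa-63 each lack the position of a replicate.

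In signal, the 13 peaks had a median of 162 (range 102 to 1352), against 241 for the 3550 IDR peaks in any promoter window and 194 for all IDR peaks. Their median rank was 5033, against 3479 for the 3550 promoter peaks. Outside the 4270 IDR peaks of highest signal lay 9 of the 13. A width of 420 bp was deposited for 8 of the 13, against 40.7% of all IDR peaks (3478).

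A further set of fbxa genes had positions outside the IDR set. The window of fbxa-202 held a top position in both replicates, with a signal of 66.3 in replicate 1 (rank 6323) and 56.6 in replicate 2 (rank 7043). So did that of fbxa-69, with 52.0 in replicate 1 (rank 7785) and 52.0 in replicate 2 (rank 7559). Neither window held a pooled position, and so neither could be an IDR peak. Such cases were few in the whole data: of 7199 top positions of replicate 1 inside a top interval of replicate 2, 103 (1.43%) lay in no pooled interval.

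The window of fbxa-108 held a position in replicate 2 only, 125 at rank 3321, with none in replicate 1. Positions of the pooled list below the IDR set lay in the windows of fbxa-145 (61.2, rank 10948), fbxa-32 (42.9, rank 14413) and fbxa-60 (30.0, rank 18728). Positions of replicate 1 alone lay in the windows of 7 more genes, all past rank 8540, the strongest being a single position shared by fbxa-67 and fbxa-11 (40.9, rank 9566). Over all 30000 pooled positions 16 fbxa genes had a summit in the window (9.41%), against 36.9% of all protein-coding genes.

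The IDR summits nearest to fbxa windows without lying in them belonged to 5 genes. The nearest was that of fbxa-95, 1561 bp upstream of its start, in a peak of signal 264 that lies in the window of lsm-5, which encodes an Sm-like RNA-binding protein. For fbxa-3 the summit lay 775 bp downstream of the start, inside the gene itself, in a peak of signal 336 that is in the window of fbxc-19, a gene of another F-box family. The rest were fbxa-216 (1786 bp downstream, signal 88.0), fbxa-127 (2588 bp upstream, signal 173) and fbxa-183 (1886 bp downstream, signal 389, in the window of F44E7.5). Windows reaching 2000 bp upstream added fbxa-95 alone and gave 14 fbxa genes (8.24%), against 26.8% of all genes.

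Most fbxa genes were far from any IDR summit, not only unbound at the promoter. The distance from the gene start to the nearest IDR summit had a median of 26.8 kb over the fbxa genes, against 5.41 kb over all protein-coding genes. It was over 10 kb for 70.6% of fbxa genes (120), against 34.6% of all protein-coding genes, and over 5 kb for 83.5% (142), against 51.8%. Neighbouring fbxa genes were often measured to the same summit, so the distances are not independent. The comparison is not matched for place on the chromosome.

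**Figure D3:**
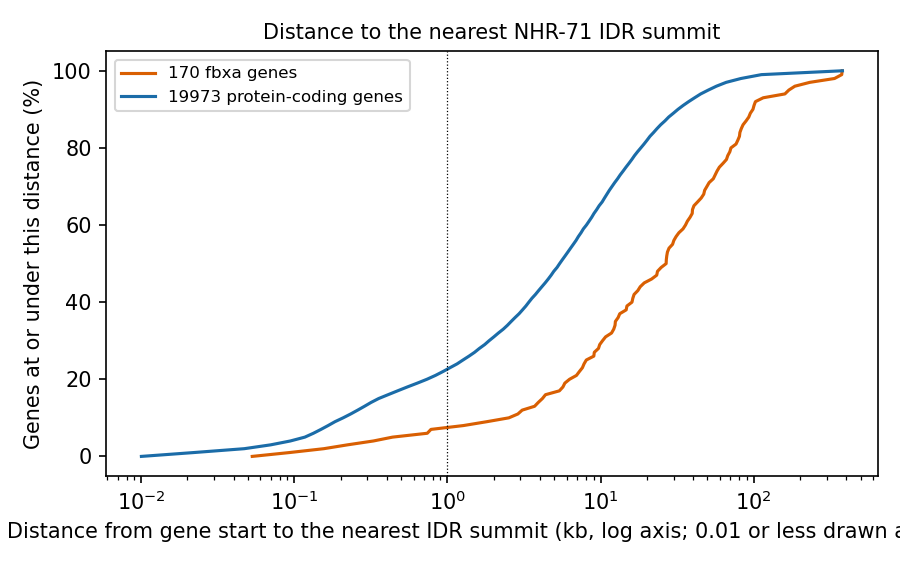
Cumulative percentage of genes (y axis) whose start lies at or under a given distance from the nearest IDR summit (x axis, kb, log axis), for the 170 fbxa genes (orange) and all 19973 protein-coding genes (blue); the dotted line marks 1 kb. The orange curve runs to the right of the blue one, and the medians are 26.8 kb and 5.41 kb.

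The places of the genes differ too. Of the fbxa genes 71 lie on chromosome V, 60 on III, 14 on II, 14 on X, 6 on I and 5 on IV. With each chromosome cut into 3 equal parts, 97.6% of fbxa genes (166) lie in the 2 outer parts, against 62.2% of all protein-coding genes. Within the outer parts, 7.83% of fbxa genes were bound (13 of 166), against 17.2% of all protein-coding genes there (2140 of 12427). The 4 fbxa genes of the middle parts were not bound, where the share of all genes was 26.7%. Bound fbxa genes numbered 5 of 60 on chromosome III, against 28.5% of all genes there, and 5 of 71 on V, against 15.9%. On the chromosomes with few fbxa genes, taken whole, 1 of 14 was bound on II (7.14%, against 19.3% of all genes there), 1 of 14 on X (7.14%, against 22.7%) and 0 of 6 on I (against 24.7%). On IV, 1 of 5 was bound (20%), against 18.5% of all genes there and 14.7% of those in its outer parts, where all 5 lie.

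Many fbxa genes stand in tandem clusters. With a cluster taken as 3 or more fbxa genes whose neighbouring starts are at most 20 kb apart, there were 13 clusters with 92 genes. Of the 92, 5 were bound (5.43%, exact interval 1.79 to 12.2%), and of the 78 outside clusters 8 were (10.3%, 4.53 to 19.2%), so that the intervals overlap. Among the other protein-coding genes inside the clusters 1 of 44 was bound (2.27%), namely efl-1. Clusters span 432 kb and held 5 IDR summits, or 1.16 per 100 kb, against 8.52 per 100 kb of the genome. All bound cluster genes lay in 2 clusters, and the other 11 clusters, with 62 fbxa genes, held no IDR summit.

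The largest cluster, at chrIII:1239048-1349450, runs from fbxa-61 to fbxa-25 with 26 fbxa genes and 4 IDR summits. It holds 4 of the bound genes, fbxa-63, fbxa-76, fbxa-77 and fbxa-37, all in the first 48.1 kb of its 110 kb. The summit that lies in no window is in a peak at chrIII:1279174-1279593, with an IDR signal of 163, 85.5 in replicate 1 and 77.6 in replicate 2. Its nearest gene start, at 243 bp, is that of a pseudogene, WBGene00013841. No IDR summit lay in the window of any other fbxa gene of the cluster.

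**Figure D4:**
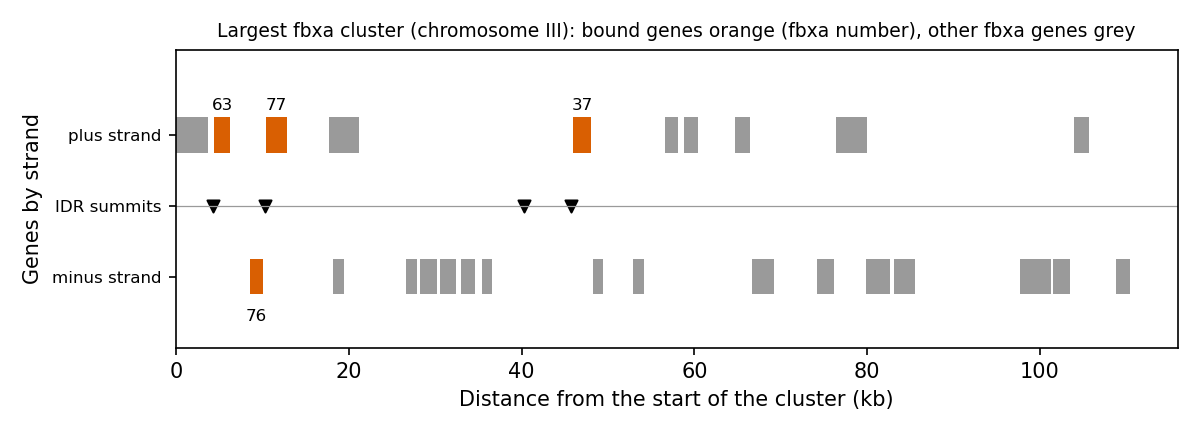
The largest fbxa cluster, with distance from its start in kb (x axis), genes on the plus strand above and on the minus strand below, and IDR summits as black triangles on the middle line. The 4 bound genes (orange, labelled by fbxa number) and all 4 summits lie in the first 48.1 kb, and the remaining fbxa genes are grey.

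The next largest clusters had no bound gene. They were chrIII:2219708-2314035 with 15 fbxa genes, chrIII:933422-963833 with 10, chrII:1609252-1624672 with 6, and chrV:16125794-16144666 with 5. A further cluster of 5 lies at chrV:17549675-17585876, also with none. The cluster of fbxa-90, at chrV:16939031-16968586, has 4 fbxa genes, of which fbxa-90 alone was bound, and its only summit is the one shared with efl-1.

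Repeated sequence was more common in fbxa windows. Words of 36 bases that occur more than once in the genome covered a median of 3.96% of a window over the fbxa genes, against 0 over all protein-coding genes. At least 10% was covered in 35.3% of fbxa windows (60), against 20.6% of all windows. In windows with no repeated word, 4.55% of fbxa genes were bound (3 of 66), against 25.0% of all protein-coding genes (3294 of 13172). Where at least 10% was covered, 6.67% of fbxa genes (4 of 60) and 10.3% of all protein-coding genes were bound. Both windows of fbxa-41 consisted of repeated words throughout. How the authors treated reads that fit several places is not given in the sources used here, and the part of repeats in the low share was not tested.

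The medians of the room upstream of the genes were close. The gap to the neighbouring gene had a median of 807 bp over fbxa genes, against 936 bp over all protein-coding genes, and the upstream neighbour was on the other strand for 47.6% of fbxa genes, against 45.4%. Where the gap was 1000 bp or more, 10.1% of fbxa genes (7 of 69) were bound, against 18.0% of all protein-coding genes (1730 of 9592).

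Of the stretches printed above, the run of 19 bases occurs at 4 places in the genome as an exact match on either strand. The 3 in fbxa windows lie 11 bp from the summit at fbxa-24, 2 bp from that at fbxa-64 and 64 bp from that at fbxa-65, and no other IDR peak holds the run within 120 bp of its summit. At fbxa-65 the summits of the replicates were nearer, at 34 bp in replicate 1 and 1 bp in replicate 2. The fourth place is in K11D2.4 on chromosome I, outside its exons, 703 bp from the nearest IDR summit. With 1 mismatch the run occurs at 14 places, none within 120 bp of an IDR summit, and with 2 mismatches at 138 places, of which 1 is within that distance of a summit and another is in the window of fbxa-4. The run lies on the strand of the gene at fbxa-24 and on the opposite strand at fbxa-64 and fbxa-65.

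Longer resemblance surrounds it at fbxa-64 and fbxa-65, where the exact match extends to 29 bases and the aligned stretch to 277 bp at 73.6% identity. The stretch holds the fbxa-64 summit but ends at chrV:3346816, short of the fbxa-65 IDR summit at chrV:3346833. The fbxa-24 peak that holds the run had no aligned stretch of 100 bp or more elsewhere. The peaks of fbxa-63 and of fbxa-76 and fbxa-77 share an exact run of 16 bases, seen in the sequences above to the left of the capitals and found at no other place in the genome, within an aligned stretch of 119 bp at 73.1% identity. That stretch also resembles sequence upstream of fbxa-61, the first gene of the cluster, where no pooled summit lay. The resemblance there was closer, over 262 bp at 79.0% identity for the fbxa-63 peak. For the fbxa-76 and fbxa-77 peak it ran over 111 bp at 80.2%. The fbxa-63 peak had 117 related places in all, and the fbxa-76 and fbxa-77 peak was the only one of them with an IDR summit. Among the longest of these alignments, most covered only the left edge of the peak, up to chrIII:1243277. They stopped short of its summit at chrIII:1243379, so such places resemble the flank only. The fbxa-65 peak had 16 related places, of which 1, at fbxa-64, held an IDR summit. Apart from the fbxa-64 place, the longest alignments of the fbxa-65 peak began at chrV:3346853 or later, past its summit. The fbxa-37 peak resembled 6 places of the same cluster, none of which held an IDR summit in the aligned stretch. At 75.2% identity, 1 of these overlaps the peak of the cluster that lies in no window, with the summit just outside the stretch.

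For fbxa-83 and fbxa-24 the resemblance is to places outside the family. The fbxa-83 peak had 5 related places, of which 3 held IDR summits, among them 1 in the window of pas-5, a proteasome subunit gene, with a signal of 1179. Another, in the window of F59C6.18, had a signal of 2082 and the highest identity, 93.5%. The stronger fbxa-24 peak had 3 related places at 96.7 to 97.4% identity, and all 3 held IDR summits, with signals of 158, 162 and 255. In repeated words of 36 bases lay 38.9% of the fbxa-83 peak and 65.7% of this fbxa-24 peak. The peaks of fbxa-90, fbxa-84, fbxa-141, fbxa-128 and fbxa-137 had no related place of 100 bp or more.

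Of 7 words searched on both strands in the 100 bp at each summit, CTGCGTCT was in 4 of the 13 peaks of fbxa windows, against 7.75% of all IDR peaks (662) and 9.32% of the promoter peaks (331 of 3550). The 4 were those of fbxa-63, of fbxa-76 and fbxa-77, of fbxa-128 and of fbxa-90 with efl-1. The first pair of these share the stretch around the word, as the aligned sequence shows. TATAAA, the usual core of a TATA box, was in 1, that of fbxa-37, against 6.01% of IDR peaks. The nuclear receptor words AGGTCA (3.78% of IDR peaks), AGTTCA (4.26%) and CAAAGTCCA (0.129%) were in none of the 13, and likewise TGATAA (10.7%) and CACGTG (6.30%). The GC content of the 100 bp had a median of 45%, against 43% for all IDR peaks.

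The other large F-box families, fbxb and fbxc, also had low shares. Of the fbxb genes 2 of 104 were bound (1.92%, exact interval 0.234 to 6.77%), namely fbxb-85 (signal 1517), whose summit is also in the window of hex-3, and fbxb-72 (signal 508). The fbxb-72 peak spans chrV:723877-728420, and its listed signals were far apart, 599 in replicate 1 and 176 in replicate 2. Of the fbxc genes 2 of 48 were bound (4.17%, 0.509 to 14.3%), fbxc-19 (336) and fbxc-23 (246), the second sharing its summit with csc-1, a gene of the chromosomal passenger complex. Of the bath genes, whose proteins are MATH-BTB adaptors of cullin 3 ligases, 5 of 36 were bound (13.9%), with the highest signals at bath-42 (832, shared with prp-8) and bath-36 (820, shared with cyn-7). The 20.8% of all protein-coding genes lies above the intervals of fbxb and fbxc but within that of bath, 4.67 to 29.5%. Here and below, the intervals cover the counting of genes only, take no account of relatedness within a family, and are not a test.

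The partners of F-box proteins are a separate group. A list of 37 annotated genes of the SCF pathway included the 20 Skp1-related skr genes and the 6 csn genes that are also given separately below. Of the 37 genes 6 were bound (16.2%, exact interval 6.19 to 32.0%), an interval that holds the 20.8% of all protein-coding genes. Highest were ubc-3 (985), encoding a ubiquitin-conjugating enzyme of the Cdc34 kind that serves SCF ligases, dcn-1 (707, shared with evl-14) and ubc-12 (310, shared with rbm-3.2), both acting in the attachment of the ubiquitin-like NED-8 to cullins, and ned-8 itself (131, shared with hpo-35). Of the Skp1-related skr genes 1 of 20 was bound, skr-19 (112), with an exact interval of 0.127 to 24.9%. Of 6 cullin genes 3 were bound (exact interval 11.8 to 88.2%), led by cul-4 (553) and cul-3 (533). The cullin gene on the SCF pathway list, cul-1, was not among them. Of 6 csn genes of the COP9 signalosome, which removes NED-8 from cullins, none was bound. The exact interval for 0 of 6 allows up to 45.9%, although 2 csn genes had a top position in replicate 1 and 1 in replicate 2.

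Of 9 other F-box genes, outside fbxa, fbxb and fbxc by name, 3 were bound (33.3%, exact interval 7.49 to 70.1%). That interval holds the 20.8% of all protein-coding genes. Grouping by name does not set apart genes of the FBXA kind that carry other names, such as the gene of FOG-2. The bound genes were fbxl-1 (943), lin-23 (843), the counterpart of mammalian beta-TrCP, and sel-10 (581), the counterpart of Fbw7. The signal of fbxl-1 was above that of every fbxa peak but the fbxa-90 one, and those of lin-23 and sel-10 were above every fbxa peak but the fbxa-90 and fbxa-83 ones.

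**Figure D5:**
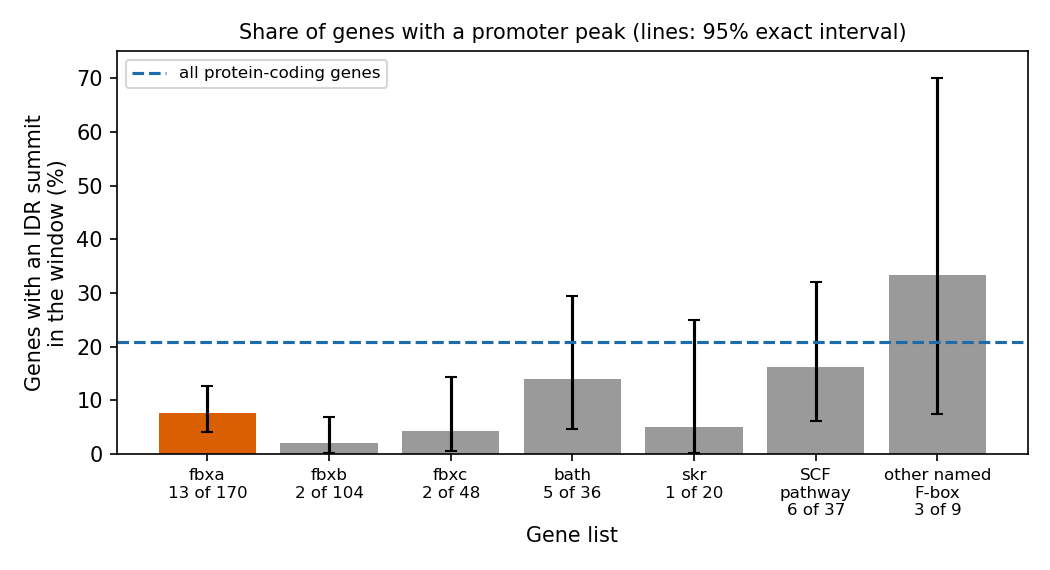
Percentage of genes with an IDR summit in the promoter window (y axis) for the fbxa genes (orange) and for compared lists (grey), with the counts under each bar; vertical lines are 95% exact intervals and the dashed line is the 20.8% of all protein-coding genes. The fbxa bar, at 7.65%, and its interval lie under the dashed line, as do those of fbxb and fbxc, while the intervals of the other lists reach it. The intervals cover the counting of genes only and take no account of the relatedness of genes.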

How the data were processed

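For each replicate, the pooled replicates and the IDR set, the authors deposited positions on ce11 with a signal and a −log10 (q) value, per the file headers and file list. All IDR peaks carry 1 distinct deposited −log10 q, so peaks were ranked by signal. Not given in the sources used here were the aligner, peak caller, IDR threshold and signal scale. Control libraries and the ce10 lists were not analysed here.

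The annotation was Ensembl release 115, and sequences were read from the RefSeq genome of WBcel235; coordinates are 1-based. Annotated starts can differ from starts of transcription, since many nematode genes are trans-spliced. Counts, intervals, repeated words and exact runs were computed with Python 3.11.15, NumPy 2.4.6, pandas 2.3.3, SciPy 1.17.1 and Biopython 1.88, and figures with Matplotlib 3.10.9. Related places came from BLAST+ 2.17.0 (at least 100 bp aligned, e-value at most 1e-10). The window count was checked on simulated summits placed inside windows only, so the check could not show false calls outside them.

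Every bound fbxa gene and its window partners are named, with the 5 fbxa genes whose IDR summits lie nearest outside the window, those with pooled positions below the IDR set or a top position in 1 replicate only, the largest clusters and the members of highest signal in each compared list. Membership in the fbxa family went by gene name alone, but the members and lists were chosen with earlier results of these data known. Searches for related places and shared runs, and the chromosome parts, were chosen after the data had been seen. fbxa-202, fbxa-69, fbxa-67, fbxa-11 and cul-1 fall outside the naming rule and were named after their values were seen. Alternatives changed the window, peak set, replicate list and cluster gap.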

Additional observations from a re-analysis of the deposited data

How the results depend on the processing

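Among the 4270 IDR peaks of highest signal the count of bound fbxa genes was 4, against 13 in the IDR set. The other windows and assignment rules gave 9 to 14, all pooled positions gave 16, and the 8540 top positions of each replicate gave 14. All 30000 listed positions gave 24 in replicate 1 and 18 in replicate 2, background included. The median signal at bound fbxa genes was 162 in the IDR set and between 67.8 and 73.1 in the lists of single replicates, which carry their own scale. The share of fbxa genes was under that of all protein-coding genes in every setting run, with a ratio between 0.176 (the 4270 strongest peaks) and 0.390. Windows reaching 500 bp upstream lost fbxa-137, fbxa-141, fbxa-83 and fbxa-90, the last 2 being the strongest. With gaps of 10 and 50 kb the clusters numbered 14 and 15 and held 4 and 5 bound genes. The lists hold no read counts, so a weak site cannot be told apart from a site missed at this depth. No paired analysis was possible because there is 1 group.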
